A study of Mus musculus with 13 samples.

Results

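Small RNA of primary mouse neutrophils was compared with that of HOXB8 cells differentiated in culture, a cell line used as a neutrophil model. The comparison took both input libraries, made before any glycoRNA purification, from a deposited table of 18385 unique sequences. All 18385 sequences were used, from 2 of the 9 small RNA libraries and of 13 libraries in the study. In the table, 6867 sequences had reads in both libraries, 1614 had reads in neutrophil input but not in differentiated HOXB8 input, 4971 had the reverse, and 4933 had reads in neither.

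The neutrophils came fresh from the bone marrow of wildtype mice. HOXB8 cells are myeloid progenitors that an estrogen-dependent HOXB8 protein keeps from maturing, and they were grown with 1 µM β-estradiol and 100 ng/ml of stem cell factor (SCF). Differentiated HOXB8 cells were washed and cultured in the same medium without β-estradiol. The labels give 1 text for all 9 libraries on labelling with 100 µM Ac4ManNAz for 36 h, together with Gal and GalNAc, so they do not say whether the neutrophils were labelled too. Total RNA was extracted with TRIzol, RNA under 300 nt was cut from a gel, and libraries followed the Illumina TruSeq small RNA procedure. The age and sex of the mice, the number pooled, the days of differentiation and whether the line is 1 clone are not given in the labels. The input library of undifferentiated HOXB8 cells, called progenitors here, is given beside them.

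Each kind of cell had 1 library, so no difference below has a replicate check, no p-value was computed, and all intervals cover counting error only. Neutrophil input held 3110323 reads, of which the table holds 88.3%. Differentiated HOXB8 input held 3809350 reads, with 70.2% in the table, and progenitor input held 3745908 reads, with 39.3% in the table. Levels are RPM, read counts scaled to the size of the whole library, and class shares are of the reads in the table. Reads were amplified by PCR and carried no molecular identifiers, so several can stem from 1 molecule. In such bulk RNA, fewer cells of a type and less RNA per cell cannot be told apart.

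Small RNA libraries catch short regulatory RNAs and the ends and fragments of longer structural RNAs. Ribosomal RNA (rRNA) is cut from a 45S precursor into 18S, 5.8S and 28S rRNA, whose fragments fill much of such a library. Transfer RNAs (tRNAs) carry amino acids to the ribosome, small nucleolar RNAs (snoRNAs) guide chemical changes of rRNA, and microRNAs (miRNAs) bind messenger RNAs through a short seed near their 5′ end. In the neutrophil lineage miR-223 is the best known miRNA and restrains progenitor growth and neutrophil activation in mice.

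The fragments that the comparison turned on are printed first, 5′ to 3′ as DNA letters. Many differed in length but stopped at the same base, so sequences were grouped by their last 12 bases, which are in capitals. Members of the family that made up 44.6% of all neutrophil reads, with their 3′ end at base 7032 of the 45S record, were
29-base rRNA fragment: cccggggctacgcctgtCTGAGCGTCGCT
30-base rRNA fragment: tcccggggctacgcctgtCTGAGCGTCGCT
21-base rRNA fragment: tacgcctgtCTGAGCGTCGCT
17-base rRNA fragment: cctgtCTGAGCGTCGCT
The leading members of other families, which differed in the opposite direction or less, were
rRNA fragment ending at 45S base 4873: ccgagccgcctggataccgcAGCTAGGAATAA
rRNA fragment ending at 45S base 9903: cagcaGGACGGTGGCCA
ncRNA-class fragment ending at 45S base 9757: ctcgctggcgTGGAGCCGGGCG
rRNA fragment ending at 45S base 672: tcttagatcGATGTGGTGCTC
snoRNA-class fragment: gagggagggaacgcAGTCTGAGTGGA
precursor-RNA-class fragment: attctgACTGGTGTGAGG

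The tRNA class turned on 1 fragment of 18 bases and its close relatives, shown with capitals at the bases that differ from the first.
tRNA fragment: gcattggtggttcagtgg
tRNA fragment T5G: gcatGggtggttcagtgg
tRNA fragment G6T: gcattTgtggttcagtgg

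For the miRNAs, the mature sequences of RefSeq (GRCm38.p6) are given with the seed, bases 2 to 8, in capitals, and those that share a seed stand together.
let-7f-5p: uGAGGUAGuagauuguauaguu
let-7i-5p: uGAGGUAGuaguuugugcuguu
let-7g-5p: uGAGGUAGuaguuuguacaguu
miR-26b-5p: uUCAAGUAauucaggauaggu
miR-26a-5p: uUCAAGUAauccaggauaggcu
miR-93-5p: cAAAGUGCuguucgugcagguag
miR-17-5p: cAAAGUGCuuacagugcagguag
miR-25-3p: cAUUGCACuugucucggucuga
miR-92a-3p: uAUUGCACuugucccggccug
miR-16-5p: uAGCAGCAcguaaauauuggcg
miR-223-3p: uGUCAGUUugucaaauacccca
miR-21a-5p: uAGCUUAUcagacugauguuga
miR-139-5p: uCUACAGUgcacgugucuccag
miR-146a-5p: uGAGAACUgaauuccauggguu
miR-146b-5p: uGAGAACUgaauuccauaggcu

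Ribosomal RNA dominated both cell types, and the classes around it differed in opposite directions. The rRNA class held 76.4% in neutrophils, against 66.99% in differentiated HOXB8 cells and 52.6% in progenitors. tRNA, miRNA, pre-miRNA and snRNA took larger shares in neutrophils than in differentiated HOXB8 cells, while ncRNA, snoRNA, genome-mapped, precursor RNA and antisense RNA sequences took smaller ones. The tRNA class held 3.37% in neutrophils, against 1.18% in differentiated HOXB8 cells and 7.18% in progenitors, a neutrophil share 2.86 times that of differentiated HOXB8 cells (95% interval 2.82 to 2.89). The ncRNA class held 3.06% in neutrophils, against 11.2% in differentiated HOXB8 cells and 11.1% in progenitors.

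The miRNA class held 3.08% in neutrophils, against 1.83% in differentiated HOXB8 cells and 3.46% in progenitors. The pre-miRNA class held 2.44% in neutrophils, against 1.52% in differentiated HOXB8 cells and 4.66% in progenitors. For both classes the share of differentiated HOXB8 cells was thus the lowest of the 3, whereas the miRNAs matched to a known hairpin had another order, given further on. The snoRNA class held 7.54% in neutrophils, against 11.1% in differentiated HOXB8 cells and 5.696% in progenitors. The snRNA class, the RNAs of the splicing machinery, held 1.31% in neutrophils, against 0.936% in differentiated HOXB8 cells and 0.615% in progenitors. Genome-mapped sequences without another annotation held 2.25% in neutrophils, against 3.47% in differentiated HOXB8 cells and 7.47% in progenitors. The order of the 3 cell types therefore differed from class to class. The 7SL, sRNA, precursor RNA and antisense RNA classes each held under 1% in both compared libraries, and RNase P, RNase MRP and Y RNA had under 100 reads each. These shares depend on 1 rRNA family: without it, the log2 ratio of the rRNA share was -0.25 and those of snoRNA and genome-mapped sequences were 0.25 and 0.19, against 0.19, -0.56 and -0.62 with it.

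**Figure D1:**
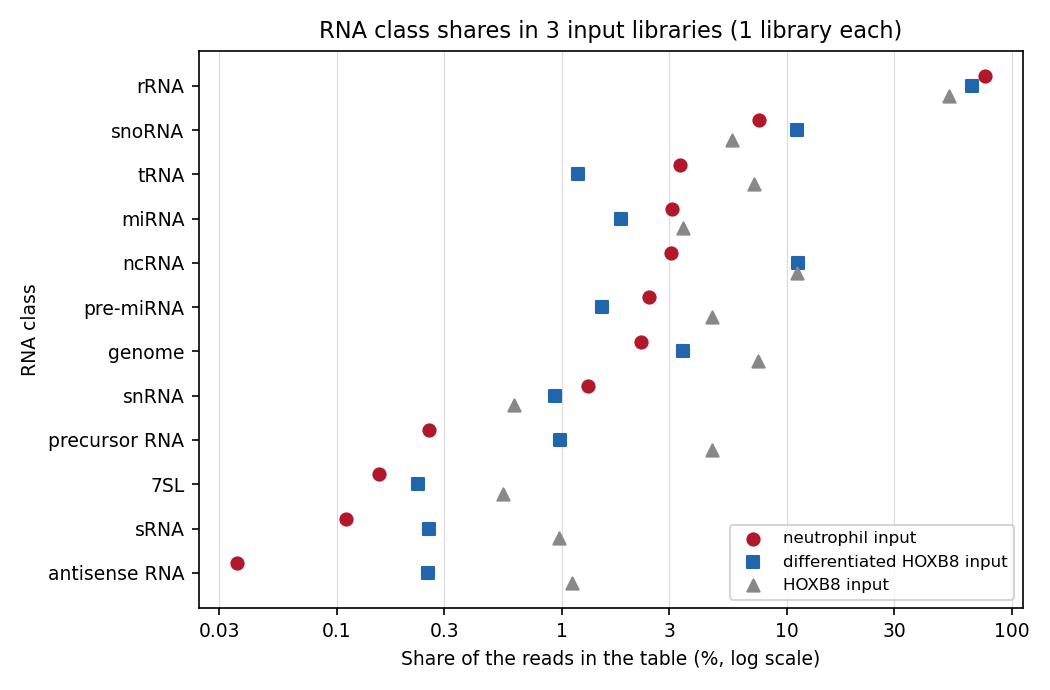
Share of the reads in the table (%, log axis) for each RNA class above 0.1% in neutrophil or differentiated HOXB8 input. Each point is 1 library, and progenitors are named HOXB8 input. Neutrophils stand right of differentiated HOXB8 cells for rRNA, tRNA, miRNA, pre-miRNA and snRNA and left of them for the other classes shown.

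Within rRNA, 1 end stood apart. Fragments with a 3′ end at base 7032 of the 45S record, in the 5.8S part near its 3′ end, summed to 450285 RPM in neutrophils, against 98224 RPM in differentiated HOXB8 cells and 10953 RPM in progenitors. That is 45.03% of the neutrophil library and 4.58-fold (95% interval 4.57 to 4.601) more than in differentiated HOXB8 cells. By RPM, the rRNA class without them was lower in neutrophils than in differentiated HOXB8 cells. It was at 224175 RPM in neutrophils, against 372057 RPM in differentiated HOXB8 cells and 195729 RPM in progenitors. Those RPM are scaled to whole libraries, in which this end held 45.03% of neutrophil and 9.82% of differentiated HOXB8 reads. With this end left out of the class and of the table's reads, the log2 ratio was -0.25, against -0.73 by RPM. The boundaries of 18S, 5.8S and 28S on this record were taken from general knowledge of it and were not checked against a sequence.

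The 112 sequences of this family share 12 bases and ran from 16 to 101 bases. The 29-base fragment printed above, the most abundant sequence in neutrophils, was at 67172 RPM in neutrophils, against 10358 RPM in differentiated HOXB8 cells and 1073 RPM in progenitors. The 17-base fragment was at 50137 RPM in neutrophils, against 12499.5 RPM in differentiated HOXB8 cells and 1677 RPM in progenitors. The 30-base fragment was at 46208 RPM in neutrophils, against 7991 RPM in differentiated HOXB8 cells and 821 RPM in progenitors. Neutrophils were highest and progenitors lowest for each of these lengths, but by unequal amounts. The 21-base fragment, the most abundant of the family in differentiated HOXB8 cells, was at 32747 RPM in neutrophils, against 13722 RPM in differentiated HOXB8 cells and 1523 RPM in progenitors, a ratio of 2.39 against 6.48 for the 29-base fragment. Over the 63 members at 100 RPM or more in either cell type, all 63 were higher in neutrophils, with ratios from 2.21 to 11.2 and a median of 4.44. These members share reads of the same RNA end, so they are not independent.

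Lengths within the family were shifted as well. Members of 16 to 22 bases made up 39.3% of the family in neutrophils, against 47.98% in differentiated HOXB8 cells. Members of 23 to 40 bases made up 46.9% in neutrophils and 40.3% in differentiated HOXB8 cells. A long form of 78 bases was at 19515 RPM in neutrophils, against 2878 RPM in differentiated HOXB8 cells.

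Most other rRNA ends were lower in neutrophils. The 18S family ending at base 4873 summed to 41661 RPM in neutrophils, against 130775 RPM in differentiated HOXB8 cells and 51302 RPM in progenitors, 3.14-fold (95% interval 3.12 to 3.16) lower in neutrophils than in differentiated HOXB8 cells. Its 32-base member, the most abundant sequence of differentiated HOXB8 cells, was at 16991 RPM in neutrophils, against 53950.3 RPM in differentiated HOXB8 cells and 19580.3 RPM in progenitors. All 34 members of this family at 100 RPM or more were lower in neutrophils. A 28S family ending at base 9903 summed to 59049.5 RPM in neutrophils, against 93865 RPM in differentiated HOXB8 cells and 40836 RPM in progenitors. Its 17-base member was at 22023 RPM in neutrophils, against 28783 RPM in differentiated HOXB8 cells and 12715 RPM in progenitors. By RPM the 28S family as a whole was 1.59-fold lower in neutrophils, and this member 1.31-fold lower. The family's log2 ratio of -0.67 still lay above the median of -1.55 over all sequences at 10 RPM or more. The neighbouring family ending at base 9757, in the 28S part too but filed mostly under ncRNA, summed to 12574 RPM in neutrophils, against 41668 RPM in differentiated HOXB8 cells and 20411 RPM in progenitors.

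A family from the 5′ external transcribed spacer, which is removed when rRNA matures, ended at base 672 and summed to 14199 RPM in neutrophils, against 27055 RPM in differentiated HOXB8 cells and 34029 RPM in progenitors. Here progenitors were highest and neutrophils lowest. The 28S family ending at base 12835, near the end of the 28S part, was among those that were higher in neutrophils, at 8810.0 RPM in neutrophils, against 2041 RPM in differentiated HOXB8 cells and 682 RPM in progenitors. A family outside the 45S record, ending in TGGGAGACCGCC and filed under rRNA, was also higher, at 40117 RPM in neutrophils, against 29169.8 RPM in differentiated HOXB8 cells and 10055 RPM in progenitors.

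Both states of the line held a wider scatter of rRNA ends than neutrophils. At 10 RPM or more, 150 end positions were seen on the 45S record in neutrophils, against 691 in differentiated HOXB8 cells and 685 in progenitors. The 5 highest ends held 90.4% of the 45S reads in neutrophils, 78.4% in differentiated HOXB8 cells and 67.5% in progenitors. In neutrophils this share rests largely on the end at base 7032. The highest end alone held 69.98% in neutrophils, 25.3% in differentiated HOXB8 cells and 21.2% in progenitors. Shares of the other ends with base 7032 left out were not compared. Some ends were nearly missing from neutrophils. The 28S end at base 10766 was at 4.82 RPM in neutrophils (15 reads), against 969 RPM in differentiated HOXB8 cells and 841 RPM in progenitors. The 18S end at base 5769 was at 11.9 RPM in neutrophils, against 1168 RPM in differentiated HOXB8 cells and 822 RPM in progenitors. Of 127 ends at 100 RPM or more in either of the compared libraries, 20 were higher in neutrophils and 107 lower. By size, 9 were 4-fold or more higher in neutrophils and 85 were 4-fold or more lower. Of all 791 single sequences at 100 RPM or more in either library, 184 were 4-fold or more higher and 183 lower. The share of each library that the table covers, given above, was highest in neutrophils, and its part in this scatter was not tested.

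**Figure D2:**
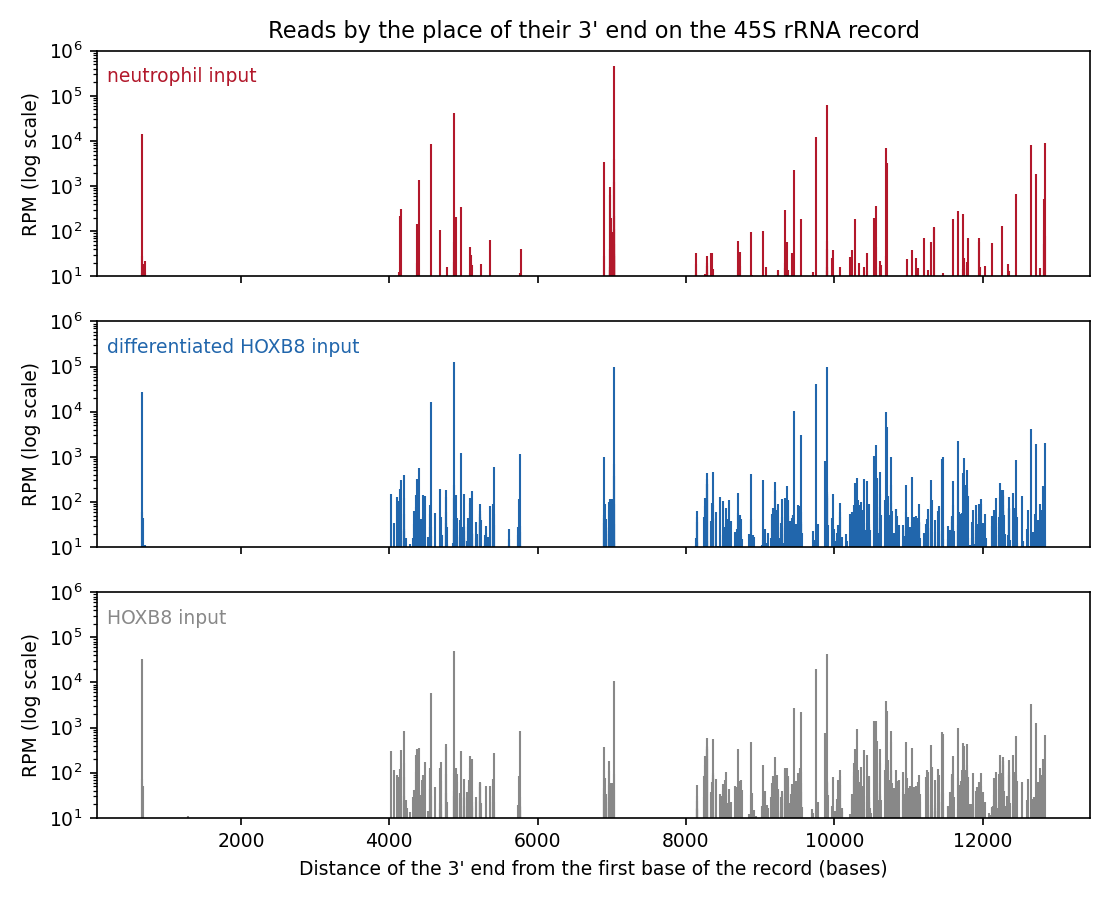
Summed RPM (log axis, from 10 RPM) of the sequences on the 45S record by the distance of their 3′ end from the first base of the 45S record, 1 panel per library, with progenitors named HOXB8 input. In neutrophils the end at base 7032 stands at 450285 RPM among 150 ends, while differentiated HOXB8 cells have 691 ends and progenitors 685.

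In the tRNA class 1 kind of fragment was abundant and higher in neutrophils. The 18-base fragment printed above begins at record base 51, the most frequent start in the class, and was at 19227 RPM in neutrophils, against 2792 RPM in differentiated HOXB8 cells and 10090.2 RPM in progenitors. It made up most of the neutrophil tRNA class and was 6.89-fold (95% interval 6.75 to 7.03) higher in neutrophils than in differentiated HOXB8 cells. For this fragment the progenitors were closer to neutrophils than the differentiated cells were. The T5G fragment, which differs by 1 base, was at 2011 RPM in neutrophils, against 10.8 RPM in differentiated HOXB8 cells and 39.8 RPM in progenitors, a ratio of 187 that rests on 41 reads in differentiated HOXB8 cells. The G6T fragment was at 1656 RPM in neutrophils, against 202 RPM in differentiated HOXB8 cells and 958 RPM in progenitors. Positions are counted from 1 at the 5′ end of the first fragment. The table does not say whether a changed base comes from another tRNA gene, a modified base or a sequencing error. The T5G ratio lay far from those of its relatives, whereas the G6T ratio, 8.21, was close to that of the fragment it differs from.

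The rest of the tRNA class differed in both directions. Fragments of any length from base 51 summed to 25097 RPM in neutrophils, against 3401 RPM in differentiated HOXB8 cells and 12184 RPM in progenitors. Fragments ending in CCA, the letters of the mature tRNA 3′ end, summed to 3258 RPM in neutrophils, against 1199 RPM in differentiated HOXB8 cells and 191 RPM in progenitors. All other tRNA fragments summed to 1385 RPM in neutrophils, against 3676 RPM in differentiated HOXB8 cells and 15849 RPM in progenitors. So fragments from base 51 and CCA ends were higher in neutrophils, and the others were lower. A 17-base fragment from another place, tagtggttaggattcgg, had 0 reads in neutrophils, against 429 RPM in differentiated HOXB8 cells and 314 RPM in progenitors. Set against a floor of 3 reads in the neutrophil library, it was at least 444-fold lower there. Among different sequences that also begin at base 51, 2 examples were higher in neutrophils. The fragment tcccatatggtctagcggttaggattcc was at 261 RPM in neutrophils, against 3.41 RPM in differentiated HOXB8 cells and 1.602 RPM in progenitors. The other, gcccggatgatcctcag, was at 571 RPM in neutrophils, against 16.8 RPM in differentiated HOXB8 cells and 7.47 RPM in progenitors. The files do not pair the records with tRNA names, so amino acids are not given.

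Most known miRNAs were higher in neutrophils. Of the table's sequences, 266 matched a RefSeq hairpin over 18 or more bases without a mismatch, and they came from 93 mature miRNAs. Together they made up 3.56% of the neutrophil library, against 0.615% of the differentiated HOXB8 library and 0.147% of the progenitor library. The neutrophil level was 5.78 times that of differentiated HOXB8 cells (95% interval 5.698 to 5.86). Of the 63 mature miRNAs at 10 RPM or more, 57 were higher in neutrophils and 6 lower, and 31 were at least 4-fold higher and 3 at least 4-fold lower on log2(RPM + 1). Among all 4070 table sequences at that level, 13.4% were at least 4-fold higher and 44.5% at least 4-fold lower in neutrophils. The median log2 ratio was 1.88 over these miRNAs and -1.55 over all those sequences. The miRNAs are sums over sequences, whereas those are single sequences. Over the 661 annotated records at that level, which are sums too, 27.5% were at least 4-fold higher and 25.7% lower, with a median of 0.13. By share of the table in place of RPM, 52 of the miRNAs were higher and 11 lower. The table's title calls it non-miRNA, so other miRNA reads may have been kept elsewhere, in shares that may differ between libraries, and the part of this in the difference was not tested.

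Among the matched miRNAs of the table, miR-16-5p, a brake on cell division in many cells, was the most abundant in neutrophils. It was at 4079 RPM in neutrophils, against 499 RPM in differentiated HOXB8 cells and 44.6 RPM in progenitors. Other miRNA reads may lie outside the table, so ranks among miRNAs hold within it only. miR-223-3p, the neutrophil miRNA, was at 3763 RPM in neutrophils, against 449.7 RPM in differentiated HOXB8 cells and 3.74 RPM in progenitors, 8.37-fold (95% interval 7.95 to 8.81) higher in neutrophils than in differentiated HOXB8 cells. The progenitor value rests on 14 reads, and differentiated cells stood far from both on a log scale. miR-21a-5p, an abundant miRNA of myeloid cells and the highest of the differentiated HOXB8 cells and progenitors, was at 3185 RPM in neutrophils, against 876 RPM in differentiated HOXB8 cells and 230.1 RPM in progenitors. miR-139-5p had the largest ratio among miRNAs at 100 RPM or more, 45.6-fold (95% interval 27.4 to 82.1), at 179.7 RPM in neutrophils, against 3.94 RPM in differentiated HOXB8 cells and 0.534 RPM in progenitors.

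Grouped by seed, 8 miRNAs with the let-7 seed GAGGUAG summed to 10849 RPM in neutrophils, against 1228 RPM in differentiated HOXB8 cells and 280.0 RPM in progenitors. The let-7 family is low in stem and progenitor cells and accumulates as cells mature. let-7f-5p, its highest member, was at 3660.4 RPM in neutrophils, against 309 RPM in differentiated HOXB8 cells and 80.4 RPM in progenitors. let-7c-5p, at 288 RPM in neutrophils, against 128 RPM in differentiated HOXB8 cells and 20.02 RPM in progenitors, had the smallest ratio of the family, 2.24. The miR-26 pair with the seed UCAAGUA summed to 4323 RPM in neutrophils, against 244 RPM in differentiated HOXB8 cells and 26.96 RPM in progenitors, the largest ratio of a shared seed at 17.7-fold (95% interval 16.6 to 18.99). These miRNAs are linked to differentiation in many tissues. Within the pair, miR-26b-5p was at 3479.7 RPM in neutrophils, against 149 RPM in differentiated HOXB8 cells and 17.1 RPM in progenitors. The 4 miRNAs with the seed AAAGUGC, which belong to the growth-linked miR-17-92 cluster and its paralogs, summed to 2017 RPM in neutrophils, against 368 RPM in differentiated HOXB8 cells and 55.3 RPM in progenitors. miR-25-3p and miR-92a-3p, of the same cluster family with the seed AUUGCAC, summed to 1917 RPM in neutrophils, against 399 RPM in differentiated HOXB8 cells and 47.3 RPM in progenitors. Cluster miRNAs tied to proliferation were thus higher in neutrophils than in both cultured states, but this was not particular to them. All matched miRNAs together were 5.78 times as high in neutrophils as in differentiated HOXB8 cells. The summed ratios of the seeds AAAGUGC and AUUGCAC both lay below that.

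The 6 miRNAs that were lower in neutrophils included a regulator of inflammation. miR-146a-5p, which dampens inflammatory signalling, was at 12.5 RPM in neutrophils, against 63.3 RPM in differentiated HOXB8 cells and 5.61 RPM in progenitors, 5.05-fold (95% interval 3.59 to 7.27) lower in neutrophils than in differentiated HOXB8 cells. miR-146b-5p, which shares its seed, was at 136 RPM in neutrophils, against 116 RPM in differentiated HOXB8 cells and 10.1 RPM in progenitors, so it was higher in neutrophils by RPM but not by share of the table. miR-34a-5p, a target of p53, was at 12.2 RPM in neutrophils, against 40.4 RPM in differentiated HOXB8 cells and 7.47 RPM in progenitors. miR-210-3p, a miRNA of low oxygen, was at 5.47 RPM in neutrophils, against 25.5 RPM in differentiated HOXB8 cells and 1.07 RPM in progenitors. All of these were higher in differentiated HOXB8 cells than in progenitors. miR-107-3p was at 18.97 RPM in neutrophils, against 28.6 RPM in differentiated HOXB8 cells and 4.81 RPM in progenitors. miR-6240 had 0 reads in neutrophils, against 11.8 RPM in differentiated HOXB8 cells and 14.7 RPM in progenitors. miR-223-5p, the other strand of the miR-223 hairpin, was at 46.9 RPM in neutrophils, against 80.6 RPM in differentiated HOXB8 cells and 0.801 RPM in progenitors, so the arms of this hairpin differed in opposite directions.

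Marker miRNAs of neutrophils and other cells were summed over both arms of each hairpin. All 6 matched members of the 7 neutrophil and granulocyte markers were higher in neutrophils (miR-145a had no sequence), as were 57 of all 63 miRNAs at 10 RPM or more, and their sum was 8298 RPM in neutrophils, against 1801 RPM in differentiated HOXB8 cells and 296 RPM in progenitors. Of 8 progenitor and HOXB8-cell markers 2 had sequences in the table, and miR-10a, miR-10b, miR-196a, miR-196b, miR-126a and miR-130a had none. miR-155, which drives growth of myeloid progenitors, was at 15.8 RPM in neutrophils, against 0.525 RPM in differentiated HOXB8 cells and 0.801 RPM in progenitors. The values of the cultured cells rest on 2 and 3 reads. miR-181a was at 91.3 RPM in neutrophils, against 32.6 RPM in differentiated HOXB8 cells and 10.4 RPM in progenitors. The erythroid markers miR-451a, miR-144 and miR-486a had no sequence in the table, which in a non-miRNA table says nothing about such cells. Of the B and T cell markers miR-150 had none either, and miR-181a and miR-181b together were at 178 RPM in neutrophils, against 87.4 RPM in differentiated HOXB8 cells and 21.1 RPM in progenitors. Among 4 broadly expressed miRNAs, miR-16, miR-191 and let-7 were higher in neutrophils and miR-146a was lower. All 5 proliferation markers were likewise higher in neutrophils, summing to 1922 RPM in neutrophils, against 489 RPM in differentiated HOXB8 cells and 83.3 RPM in progenitors.

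The 3′ ends of miRNA reads were compared as well. Over all matched miRNA reads, 24.04% were shorter at the 3′ end than the RefSeq mature form in neutrophils, against 17.9% in differentiated HOXB8 cells and 15.1% in progenitors. Much of this gap lay in miR-223-3p, without which the shares were 17.4% in neutrophils and 15.1% in differentiated HOXB8 cells. Of 20 miRNAs at 300 RPM or more in neutrophils, 16 had the larger share of shortened reads there and 4 the smaller, among them let-7i-5p with 8.49% in neutrophils and 11.3% in differentiated HOXB8 cells. For miR-223-3p the shortened reads were 79.4% in neutrophils, against 51.8% in differentiated HOXB8 cells. The reads behind this, with the bases past position 18 in capitals, were
22-base miR-223-3p: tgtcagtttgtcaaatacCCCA
19-base miR-223-3p: tgtcagtttgtcaaatacC
18-base miR-223-3p: tgtcagtttgtcaaatac
The 22-base form was at 526 RPM in neutrophils, against 138 RPM in differentiated HOXB8 cells and 0.534 RPM in progenitors. The 19-base form was at 1411 RPM in neutrophils, against 52.8 RPM in differentiated HOXB8 cells and 1.602 RPM in progenitors. The 18-base form was at 212 RPM in neutrophils, against 2.36 RPM in differentiated HOXB8 cells and 0.267 RPM in progenitors. The shorter the form, the larger its ratio between the cell types in these 3. For miR-26b-5p reads longer than the mature form prevailed instead, with 76.2% in neutrophils and 86.4% in differentiated HOXB8 cells. Reads with bases that the hairpin does not encode were not matched and are not counted. Since the table is titled non-miRNA, forms of a miRNA may be missing from it, unequally between libraries. The part of this in the shares of read forms was not tested.

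**Figure D3:**
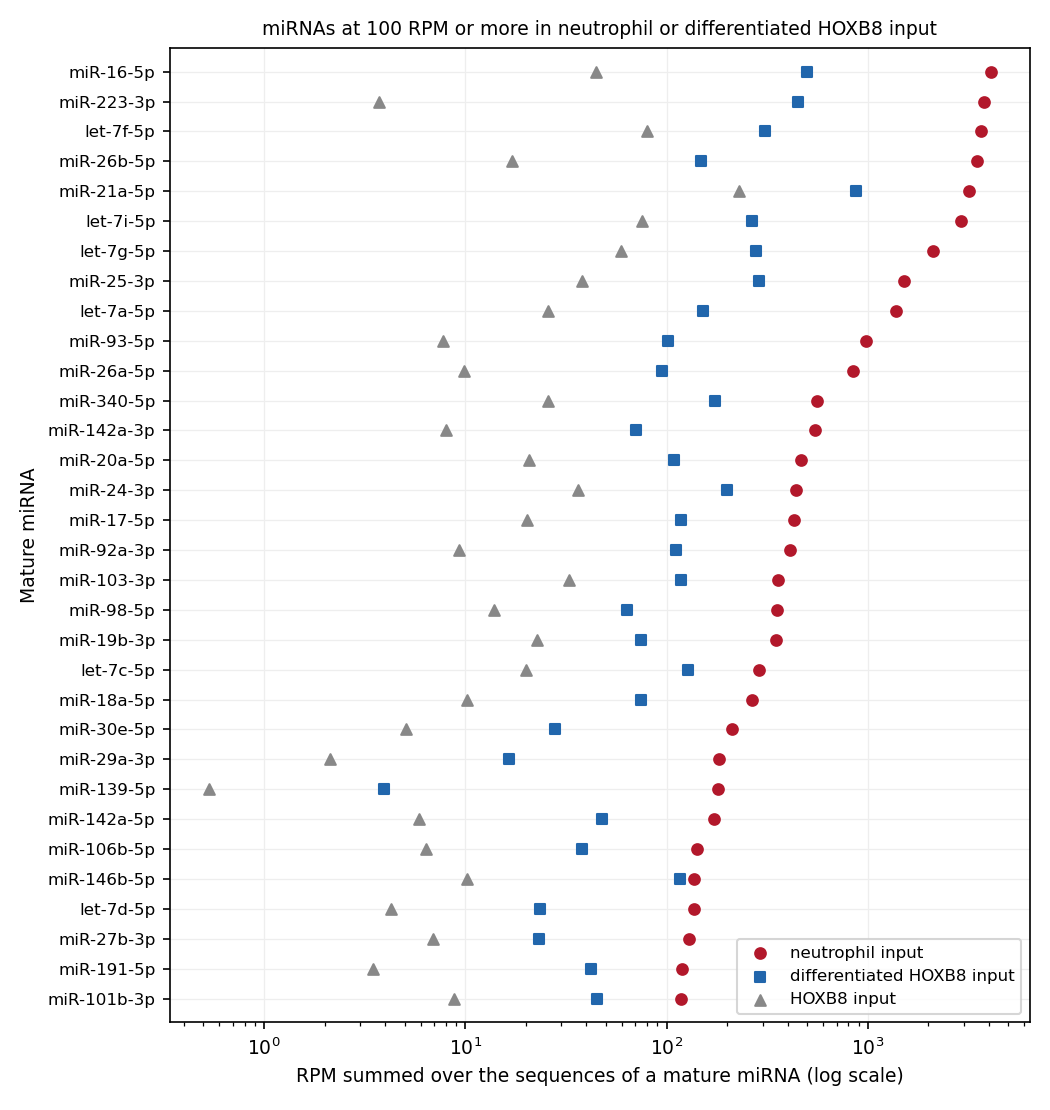
RPM (log axis) of the 32 mature miRNAs at 100 RPM or more in neutrophil or differentiated HOXB8 input, each point 1 library (progenitors named HOXB8 input), ordered by the neutrophil level. In each row neutrophils stand right of differentiated HOXB8 cells, which stand right of progenitors. miR-146b-5p has the closest pair of points, at 136 and 116 RPM.

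The classes called miRNA and pre-miRNA held other RNA as well. The part of the miRNA class RPM that matched a hairpin was 59.5% in neutrophils, against 21.8% in differentiated HOXB8 cells and 4.28% in progenitors. The part that lay on the 45S record was 26.5% in neutrophils, against 43.1% in differentiated HOXB8 cells and 37.3% in progenitors. For the pre-miRNA class the hairpin-matched part was 80.99% in neutrophils, against 27.9% in differentiated HOXB8 cells and 3.55% in progenitors. In progenitors nearly all of both classes thus matched no RefSeq hairpin. Sequences under 18 bases could not match, so the unmatched part can hold short miRNA reads too. In progenitors 16 bases was the most frequent length, with 20.2% of miRNA-class and 21.9% of pre-miRNA-class reads. The most abundant pre-miRNA-class sequence of differentiated HOXB8 cells, attcccttggtcagtc, is too short to be matched and was at 8.68 RPM in neutrophils, against 551 RPM in differentiated HOXB8 cells and 1505 RPM in progenitors.

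snoRNA-class fragments were often close in level between neutrophils and differentiated HOXB8 cells. The largest family, ending in AGTCTGAGTGGA, summed to 47470.3 RPM in neutrophils, against 62072 RPM in differentiated HOXB8 cells and 16894 RPM in progenitors. Its 26-base member printed above was at 10664 RPM in neutrophils, against 11432 RPM in differentiated HOXB8 cells and 2893 RPM in progenitors, 1.07-fold lower in neutrophils than in differentiated HOXB8 cells. A family ending in AGTCTGAGTGGT summed to 9285 RPM in neutrophils, against 11735 RPM in differentiated HOXB8 cells and 3652 RPM in progenitors. Of 250 snoRNA-class sequences at 10 RPM or more, 124 (49.6%) lay within 2-fold, against 20.5% of all sequences. Summed by annotated record, 39 of 95 snoRNA records were 4-fold or more higher in neutrophils and 3 were lower, with 27.5% higher and 25.7% lower over all records. The most abundant snoRNA family thus differed little, while more of the records were higher than lower in neutrophils.

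Of 85 snRNA-class sequences at 10 RPM or more, 38 (44.7%) were 4-fold or more higher in neutrophils and 10 (11.8%) were 4-fold or more lower. Over all sequences at that level 13.4% were higher and 44.5% lower. The family ending in CAATATATTAAA summed to 5229.7 RPM in neutrophils, against 3654 RPM in differentiated HOXB8 cells and 1076 RPM in progenitors. The 22-base sequence actgcgttcgcgctctcccctg was at 911 RPM in neutrophils, against 168 RPM in differentiated HOXB8 cells and 31.5 RPM in progenitors. The sequence gaggacacagtctgagtggt was lower in neutrophils, at 638 RPM in neutrophils, against 877 RPM in differentiated HOXB8 cells and 279 RPM in progenitors. The 7SL class, the RNA of the signal recognition particle that guides proteins to the endoplasmic reticulum, was led by cctctgcctcccaagtgc, at 367 RPM in neutrophils, against 955 RPM in differentiated HOXB8 cells and 1567 RPM in progenitors. A 22-base sequence filed under sRNA ends in the same 18 bases, so the class label does not settle which RNA this fragment came from. A longer 7SL fragment was higher in neutrophils, caacatagcgagaccccgtctcta, at 99.99 RPM in neutrophils, against 19.7 RPM in differentiated HOXB8 cells and 1.87 RPM in progenitors. The mean read length in the 7SL class was 23.8 bases in neutrophils and 19.5 bases in differentiated HOXB8 cells. Reads of 18 bases, the length of the leading sequence, made up 27.9% of the class in neutrophils and 66.3% in differentiated HOXB8 cells.

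Some RNA of the cultured cells was scarce in neutrophils. A family of sequences ending in ACTGGTGTGAGG, spread over 48 records of the precursor RNA, antisense RNA, pre-miRNA, sRNA and other classes, summed to 609 RPM in neutrophils, against 7269.7 RPM in differentiated HOXB8 cells and 21480.5 RPM in progenitors, 11.9-fold (95% interval 11.4 to 12.5) lower in neutrophils than in differentiated HOXB8 cells. Its 18-base member printed above was at 23.5 RPM in neutrophils, against 1469 RPM in differentiated HOXB8 cells and 3860.5 RPM in progenitors. Progenitors were highest and neutrophils lowest. Of its 56 members at 10 RPM or more, 49 were 4-fold or more lower in neutrophils and 0 higher, beside 44.5% lower and 13.4% higher over all sequences. The hairpin-matched part of the precursor RNA class, which includes the full-length let-7g, was higher in neutrophils, at 1888 RPM in neutrophils, against 369 RPM in differentiated HOXB8 cells and 205 RPM in progenitors. The remainder of that class was at 389 RPM in neutrophils, against 6539 RPM in differentiated HOXB8 cells and 18063 RPM in progenitors.

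The ncRNA class, lower in neutrophils, was largely rRNA by sequence. The part of its RPM in exact matches to the 45S record was 95.1% in neutrophils, against 96.5% in differentiated HOXB8 cells and 95.5% in progenitors. Of the remainder, ccaggcggaacgatacggc was at 304 RPM in neutrophils, against 1.31 RPM in differentiated HOXB8 cells and 2.94 RPM in progenitors, which rests on 5 reads in differentiated HOXB8 cells. Genome-mapped sequences had 2 abundant members that were higher in neutrophils. One, agcggagtagagcagt, lies at chr7:81731500-81731515 on the reverse strand of mm10 within the gene Gm42400 and was at 10282 RPM in neutrophils, against 6041 RPM in differentiated HOXB8 cells and 7200.4 RPM in progenitors. The other, ttaagtaagagtatttgg, lies at chrX:142215582-142215599 on the reverse strand outside RefSeq genes and was at 2018 RPM in neutrophils, against 1441 RPM in differentiated HOXB8 cells and 1410.3 RPM in progenitors. Sequences this short can match several places, and the table gives 1. A sequence with 2 more bases at its 5′ end than the first, tcagcggagtagagcagt, had 0 reads in neutrophils, against 179.8 RPM in differentiated HOXB8 cells and 227 RPM in progenitors. Without the 2 abundant sequences, the class was at 7599.5 RPM in neutrophils, against 16911 RPM in differentiated HOXB8 cells and 20739 RPM in progenitors. A 25-base sequence at chr19:3501599-3501623 within Ppp6r3, agataggaagataggaagttgcttt, had 0 reads in neutrophils, against 383 RPM in differentiated HOXB8 cells and 321 RPM in progenitors, at least 397-fold lower in neutrophils.

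Among sequences at 100 RPM or more in the higher library, several were all but confined to 1 side. The rRNA fragment cccccgggccgcggttttc, from the 28S part, was at 124 RPM in neutrophils and had 0 reads in differentiated HOXB8 cells and in progenitors, at least 158-fold higher in neutrophils than a floor of 3 reads in the differentiated HOXB8 library. The 16-base sequence tgtaaacatcctcgac, filed under miRNA as record URS000043D1A9, was at 202 RPM in neutrophils with 0 reads in both others. The rRNA fragment ccccaacttcttagagggacaag was at 585 RPM in neutrophils, against 10.2 RPM in differentiated HOXB8 cells and 18.7 RPM in progenitors. In the other direction, attagaggtcttggggcc, filed under ncRNA, had 0 reads in neutrophils, against 463 RPM in differentiated HOXB8 cells and 317 RPM in progenitors. The rRNA fragment cggatcggccccgccggggtc was at 0.965 RPM in neutrophils, against 344 RPM in differentiated HOXB8 cells and 302 RPM in progenitors. Single rRNA sequences thus differed in both directions by more than the 5.8S family did.

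Read lengths differed with these families. The mean length in the table was 29.2 ± 15.01 bases (SD over reads) in neutrophils, against 27.7 ± 12.4 in differentiated HOXB8 cells and 24.1 ± 10.3 in progenitors. Reads of 29 and 30 bases, the lengths of the leading 5.8S fragments, made up 15.5% in neutrophils, against 6.97% in differentiated HOXB8 cells. Reads of 31 to 34 bases, with the 32-base 18S fragment, made up 8.77% in neutrophils and 16.5% in differentiated HOXB8 cells. Reads of 16 to 18 bases made up 24.99% in neutrophils, 27.7% in differentiated HOXB8 cells and 41.3% in progenitors. In the tRNA class 81.8% of reads were 18 bases long in neutrophils, against 46.2% in differentiated HOXB8 cells. In the pre-miRNA class 43.7% were 22 bases long in neutrophils, against 14.8% in differentiated HOXB8 cells.

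**Figure D4:**
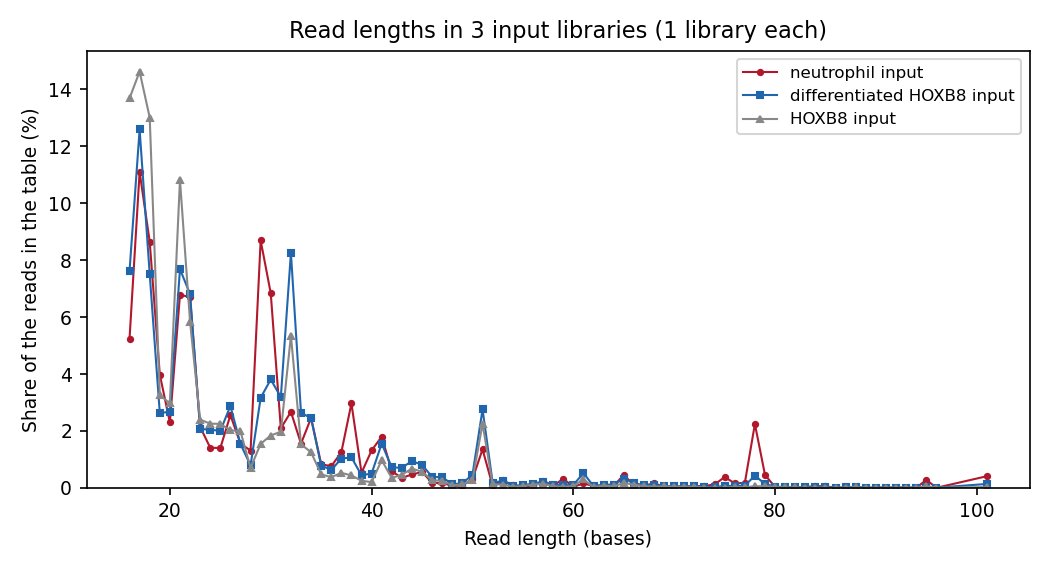
Share of the reads in the table (%) by read length (bases), 1 line per input library, with progenitors named HOXB8 input. All 3 peak at 17 bases. Neutrophils have another peak at 29 and 30 bases, 15.5% of reads against 6.97% in differentiated HOXB8 cells, and the cultured cells have one at 32 bases.

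Counted sequence by sequence, more were lower than higher in neutrophils. Of the 4070 sequences at 10 RPM or more in either library, 545 (13.4%) were 4-fold or more higher and 1811 (44.5%) were 4-fold or more lower. The median log2 ratio of these sequences was -1.55, so the counts rest on the scale: with that median set to 0, 1069 were higher and 1172 lower, and with a pseudocount of 10 RPM 256 were higher and 508 lower. Against that median the rRNA families ending at bases 9903 and 672 (log2 ratios of -0.67 and -0.93) and the largest snoRNA family (-0.39) stood higher in neutrophils, whereas the family ending at base 4873 (-1.65) stood lower. The balance also changed with abundance. Of 3279 sequences at 10 to 100 RPM in the higher library, 361 were higher and 1628 lower by that measure. Of 140 at 1000 RPM or more, 48 were higher and 6 lower. Precursor RNA, genome-mapped and ncRNA sequences were lower most often, with 74 of 87, 292 of 418 and 293 of 460. snRNA sequences were higher most often, with 38 of 85. By annotated record the directions were near even, with 182 of 661 records (27.5%) higher and 170 (25.7%) lower, and when scaled to the table's reads, 146 were higher and 214 lower. Of pre-miRNA records 69 of 120 were higher and 8 lower.

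**Figure D5:**
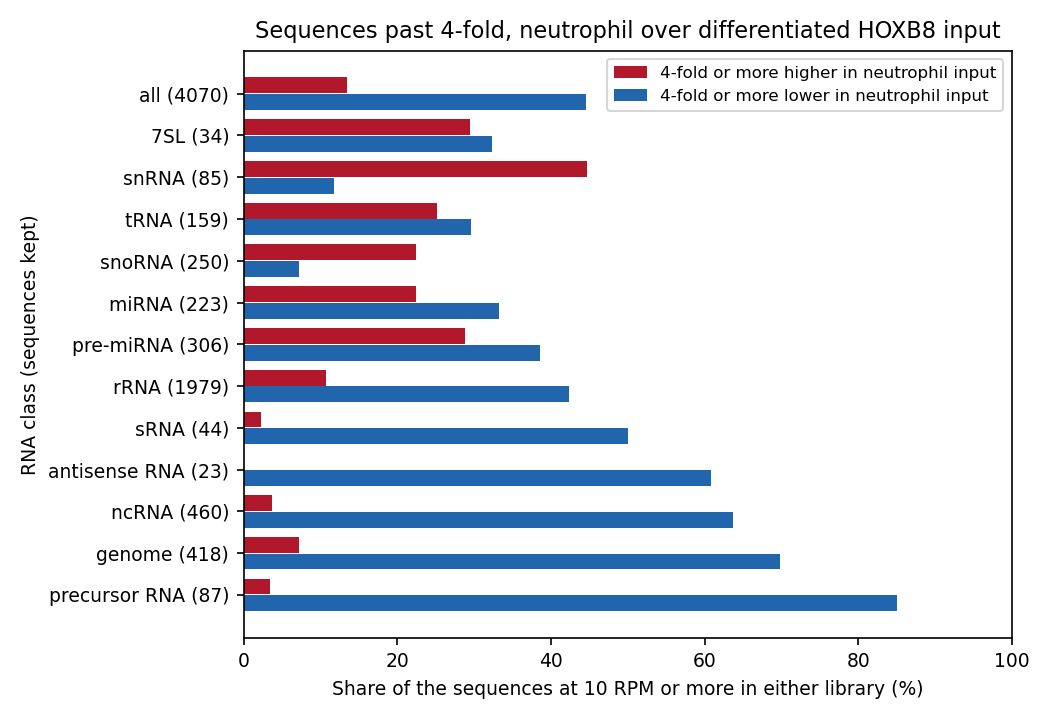
Share (%) of the sequences at 10 RPM or more in either library that were 4-fold or more higher (red) or lower (blue) in neutrophil than in differentiated HOXB8 input, by RNA class with the number kept. Over all classes 13.4% were higher and 44.5% lower, and snRNA and snoRNA are the classes with more sequences higher than lower.

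The last question was how near the model came to the primary cell. In these libraries differentiated HOXB8 cells stood between neutrophils and progenitors, and closer to the progenitors. The table holds 88.3% of neutrophil, 70.2% of differentiated HOXB8 and 39.3% of progenitor reads. Both states of the line also share their origin and, apart from β-estradiol, their medium. The part of either in this order was not tested. The Bray-Curtis distance, which is 0 for equal and 1 for non-overlapping libraries, was 0.504 between neutrophils and differentiated HOXB8 cells over shares of the table. It was 0.643 between neutrophils and progenitors and 0.345 between differentiated HOXB8 cells and progenitors. Without the family ending at base 7032 these were 0.391, 0.503 and 0.3302. Without the rRNA class they were 0.445, 0.605 and 0.418, so the order of the 3 pairs held in both cases. Across the 4843 sequences at 10 RPM or more in any of the 3 libraries, Pearson's r of log2(RPM + 1) was 0.53 for neutrophils with differentiated HOXB8 cells, 0.06 for neutrophils with progenitors and 0.71 for differentiated HOXB8 cells with progenitors. Spearman's rho was 0.35, -0.12 and 0.58 in the same order. These describe sequences that share RNAs and libraries, and sequences are not replicates. Of those sequences, 2942 (60.7%) had their differentiated HOXB8 level between the levels of neutrophils and progenitors.

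Libraries of RNA captured on wheat germ agglutinin (WGA) beads exist for the same cells and may come from the same RNA. Of the sequences 4-fold or more lower in neutrophil input that also had 10 RPM or more in a WGA library, 400 of 536 (74.6%) were lower in the neutrophil WGA library too, against 52.5% of all 1435 such sequences, whereas of those 4-fold or more higher 55 of 143 (38.5%) were higher, against 47.5%.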

How the data were processed

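The small RNA table gives each unique sequence with its class, annotated record, position and length, and a value per library. The deposited values are RPM made by the authors, reads scaled to library size. In the 3 input libraries used, over 99% of values divided by that of 1 read came out within 0.01 of a whole number, and all within 1% of one, which gave back the reads. Per the submitters' processing notes the build is mm10; the aligner, trimming and sequence filter are not given in the sources used here. Per the file's title the table is of non-miRNA sequences.

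Class shares (with exact Clopper-Pearson intervals), RPM ratios (exact conditional 95% intervals) and log2(RPM + 1) ratios were computed with Python 3.11.15, pandas 2.3.3, NumPy 2.4.6, SciPy 1.17.1 and Matplotlib 3.10.9 and tested on simulated data. Sequences and records at 10 RPM or more in the higher library were counted past 4-fold. A sequence with 0 reads was set against a floor of 3 reads. Places on the 45S record came from the table's own sequences of that record, and sequences were matched to RefSeq (GRCm38.p6) hairpins over 18 or more bases. Bray-Curtis distances used shares of the table.

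The rule named every class at 1% or more, the 5 highest sequences of each library, the highest of each class, and the 10 with the largest ratio in each direction among those at 100 RPM or more, with the 3 highest records of each class. Records carry no gene names, so groups by amino acid, snoRNA box and snRNA type could not be made, and few records are named. Members and lists were chosen with earlier results of these data known. Grouping by 3′ end, by 45S end and by hairpin was chosen after values were seen, as were miRNA read forms and other sequences outside the rule. Alternatives changed the denominator, minimum, pseudocount, scale, fold, length minimum and the sequences left out. The poly(A) RNA libraries and the biotin libraries were not used here.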

Additional observations from a re-analysis of the deposited data

How the results depend on the processing

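With 1 library a side, no value has a replicate check, and depth sets only the counting error. No paired analysis was possible because each group holds 1 library. The table covers unequal shares of the libraries and states no filter, and its miRNA reads may be partial. Alternatives that leave out the largest 3′ end family were chosen after seeing the data. Where a value moved or changed sign below, the cause was not tested. Class log2 share ratios, neutrophil over differentiated HOXB8 input, are given for RPM of all reads, without the 10 highest sequences of each library, at 20 or more bases, over distinct sequences, and without the largest family, in that order. They were 0.52, 0.17, 0.12, -0.0545 and -0.25 for rRNA (0.19 as reported), and -0.23, -0.30, -0.48, 0.71 and 0.25 for snoRNA (-0.56 as reported). For tRNA they were 1.85, 0.89, 1.18, 0.16 and 2.33 (1.51 as reported), and for miRNA 1.08, 1.03, 1.16, 0.0449 and 1.56 (0.75 as reported). For ncRNA they were -1.54, -1.62, -1.71, -0.21 and -1.06 (-1.87 as reported), and for pre-miRNA 1.02, 0.98, 1.54, -0.0581 and 1.502 (0.69 as reported). For genome-mapped sequences they were -0.29, -0.34, -1.57, 0.22 and 0.19 (-0.62 as reported), and for snRNA 0.81, 0.77, 0.38, 0.41 and 1.29 (0.48 as reported). Sequences past 4-fold numbered 184 higher and 183 lower at a minimum of 100 RPM, 256 and 508 with a pseudocount of 10 RPM, and 1069 and 1172 with the median log2 ratio set to 0. They numbered 885 and 2352 past 2-fold, and 683 and 3228 with no minimum. Records numbered 66 higher and 62 lower at 100 RPM, 93 and 96 with a pseudocount of 10 RPM, and 279 and 256 past 2-fold. By share of the RNA class 392 sequences were higher and 1910 lower. Mean length differences over distinct sequences and without the 10 highest were 4.65 and 5.62 bases for rRNA, 3.98 and 1.32 for snoRNA and 1.25 and 2.37 for tRNA. Over distinct sequences they were 0.999 for miRNA, 2.18 for ncRNA, -0.185 for pre-miRNA and 0.764 for genome-mapped sequences. Distances are given over records, without the 10 highest, without rRNA, by RPM and without the largest family, in that order. They were 0.346, 0.486, 0.445, 0.502 and 0.391 between neutrophils and differentiated HOXB8 cells. They were 0.435, 0.641, 0.605, 0.669 and 0.503 between neutrophils and progenitors, and 0.232, 0.353, 0.418, 0.445 and 0.330 between differentiated HOXB8 cells and progenitors. The order of the 3 distances was the same in these 5.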
